A study of Mus musculus with 8 samples.

Results

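Resident macrophages of fat are long-lived phagocytes, and 10 genes that they express at high levels were followed here, namely *C1qa*, *C1qb*, *C1qc*, *Mrc1*, *Cd163*, *Folr2*, *Lyz2*, *Cd68*, *Csf1r* and *Mpeg1*. They were chosen by name: every spot whose array gene name equals one of these symbols was taken, with no use of its signal. They were 10 of 37074 gene names on the array, and they held 17 of its 56605 probes. The study asked how a dose of oral bacteria in the blood changes gene expression in brown fat. RNA came from tissue labelled brown adipose tissue (BAT) of 12-week-old male C57BL/6J mice, an inbred strain, all with no genetic change named in the labels or methods. Co mice (n = 4) had an intravenous injection of 100 μL of saline, and Pg mice (n = 4) had the same volume with sonicated *Porphyromonas gingivalis*, a bacterium of gum disease. The methods give the dose as 100000000 CFU, whereas the labels print 108. Tissue was taken 18 h later, and each mouse had 1 Agilent one-color array.

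Tissue macrophages depend on signals through CSF1R, the receptor of the growth factor CSF1. They take up dying cells, debris, hemoglobin and glycoproteins through scavenger and lectin receptors, and they make most of the C1q found in tissues. C1q is the recognition molecule of the classical complement pathway, and it is built from the products of *C1qa*, *C1qb* and *C1qc*. In adipose tissue these cells lie among the adipocytes, next to blood vessels and nerves. The array measured RNA of the whole tissue piece, in which fewer cells of a type and less RNA per cell cannot be told apart.

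A single slide held all 8 arrays and was scanned once. Row 1 of it was Co and row 2 was Pg, and slide position and group cannot be told apart. The probes well above background numbered 34760 to 35831 on a Co array and 31132 to 34063 on a Pg array. The tissue label was checked against marker lists. Of 13 brown adipocyte genes, 11 were well above background on all 8 arrays, whereas *Ucp1*, the uncoupling protein that defines brown fat, and *Elovl3* were above it on no array. All 10 skeletal muscle genes were above background on all 8 arrays, and so was the brightest probe of each of the 10 macrophage genes. The muscle signals were high, with mean normalized log2 levels from 12.96 (*Actn3*) to 18.84 (*Tnnt3*). Those of the 11 brown adipocyte genes ran from 7.06 (*Plin1*) to 18.00 (*Cox8b*), with *Cidea* at 13.39. Signals of different probes do not give relative amounts, and how much muscle the tissue held was not tested. The RNA is called by its label, BAT, although *Ucp1* was not detected above background by its probe. The study also measured *Ucp1* in BAT by qPCR, which was not analysed here.

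The probes that carry the measurements are 60-base oligonucleotides, and 4 are shown to identify what was measured for complement C1q, the folate receptor and lysozyme. They are written 5′ to 3′ in lower case as the array's design gives them.
*C1qa* probe: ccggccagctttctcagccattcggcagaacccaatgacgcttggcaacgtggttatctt
*C1qb* probe: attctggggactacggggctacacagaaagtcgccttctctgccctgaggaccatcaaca
*Folr2* probe: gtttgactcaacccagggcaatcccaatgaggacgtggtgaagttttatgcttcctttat
*Lyz2* weaker probe: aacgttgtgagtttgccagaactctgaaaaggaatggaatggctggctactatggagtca
In the mm9 coordinates of the array files, the *C1qa* probe is at chr4:136452409-136452468 and the *C1qb* probe at chr4:136436578-136436637, both on the minus strand. The *Folr2* probe is at chr7:108988771-108988830 and the *Lyz2* probe at chr10:116719175-116719234, also on the minus strand. Exon and coding annotation of that build was not used here. *Lyz2* has a close copy, *Lyz1*, next to it in the genome, and how far its RNA binds the *Lyz2* probes was not tested.

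The 3 C1q genes lie side by side on chromosome 4. In RefSeq's GRCm38.p6 table *C1qb* spans 136880126 to 136886200, *C1qc* 136889801 to 136892936 and *C1qa* 136895916 to 136898844, so that all 3 fit within 18719 bases. The other members are spread over chromosomes 2 (*Mrc1*), 6 (*Cd163*), 7 (*Folr2*), 10 (*Lyz2*), 11 (*Cd68*), 18 (*Csf1r*) and 19 (*Mpeg1*).

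Promoters were searched because the members' signals moved together between arrays, as described further on. The 250 bases before the start used by RefSeq's promoter table (GRCm38.p6) were read for 8 of the 10 genes, with 2 starts for *Folr2*. For *C1qc* and *Cd163* that start lies inside the gene's span in the gene table, so their windows reach into it, and the window of the further *Folr2* start lies wholly inside that gene. The letters GAGGAA, the core that PU.1 and other ETS factors bind, were found on either strand in 4 of the 8, namely *C1qb*, *C1qc*, *Mrc1* and *Cd68*, and in 23.3% of 32851 mouse promoters of that length. *C1qb* (chr4:136886201-136886450, minus strand) and *Mrc1* (chr2:14229164-14229413, plus strand) are shown, with GAGGAA or its reverse complement in capitals.
*C1qb* promoter: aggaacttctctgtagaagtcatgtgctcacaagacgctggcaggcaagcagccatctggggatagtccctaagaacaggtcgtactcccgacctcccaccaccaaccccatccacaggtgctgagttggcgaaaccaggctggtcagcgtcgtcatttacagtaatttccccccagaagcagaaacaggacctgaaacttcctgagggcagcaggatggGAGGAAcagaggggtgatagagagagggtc
*Mrc1* promoter: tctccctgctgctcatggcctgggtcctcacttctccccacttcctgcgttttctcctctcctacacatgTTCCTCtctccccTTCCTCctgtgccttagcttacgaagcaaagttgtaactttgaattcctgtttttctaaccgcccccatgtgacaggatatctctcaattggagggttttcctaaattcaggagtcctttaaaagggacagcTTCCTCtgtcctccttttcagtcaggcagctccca
The *Mrc1* window held 3 matches and the *C1qb* window 1. TGCTGAC, letters that MAF factors bind, and a pair of GAAA runs set 2 bases apart, as in interferon-response elements, were each found for 0 of the 8 genes, against 3.81% and 2.98% of all promoters. These matches overlap no other motif searched, and they describe letters, not bound sites.

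Levels are given as the log2 of the background-subtracted signal after quantile normalization between arrays, so a difference of 1 is a doubling of signal. Signals of different probes cannot be ranked against each other. Each member was compared between Pg and Co mice with limma's moderated test, two-sided, and the q value is its p adjusted by Benjamini-Hochberg over 33819 probes. Probes were called differentially expressed at a fold change above 1.5 with q under 0.1.

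No resident macrophage gene differed between Pg and Co mice by that test. Of the 17 probes, 14 exceeded background clearly on 4 or more arrays and were tested, and 0 of the 14 were differentially expressed, against 1.61% of all probes tested. Without the fold limit 0 of the 14 had a q under 0.1 (7.82% of all probes), and their q values ran from 0.163 to 0.931. At an unadjusted p under 0.05 there was 1, a *Csf1r* probe, against 22.8% of all probes. The fitted difference was above 0 for 11 of the 14 probes and below 0 for 3, where 42.3% of all probes tested were above 0. The median log2 difference was 0.22 over the 14 probes and -0.04 over all probes tested. Single mice set this median: without Pg mouse 2 it was 0.003, with 7 of the 14 probes above 0, and without Pg mouse 3 it was 0.54, with 13 above 0.

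*C1qa* encodes the A chain of C1q. Its log2 signal was 8.81, 8.61, 9.27 and 9.20 in Co mice 1 to 4 and 9.05, 9.90, 8.30 and 9.38 in Pg mice 1 to 4. The Pg mice held both the highest and the lowest value, and the Co values lay between them. The means were 8.97 ± 0.32 (SD, n = 4) in Co and 9.16 ± 0.67 (SD, n = 4) in Pg mice. The fitted log2 difference was 0.18 ± 0.33 (SE, limma q = 0.77), which is a fold change of 1.14 with a 95% interval from 0.673 to 1.92.

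*C1qb*, the B chain, gave 8.76, 8.33, 8.98 and 9.03 in Co mice and 8.86, 9.82, 8.17 and 9.25 in Pg mice. Pg mouse 2 was again the highest and Pg mouse 3 the lowest of the 8. The log2 difference was 0.25 ± 0.34 (SE, limma q = 0.688), or 1.19-fold with an interval from 0.695 to 2.04. *C1qc*, the C chain, read 10.22, 9.79, 10.69 and 10.59 in Co and 10.39, 11.05, 9.53 and 10.68 in Pg mice. The groups overlapped in the same way, with a difference of 0.09 ± 0.34 on the log2 scale (SE, limma q = 0.897) and a fold of 1.06 (interval 0.62 to 1.82). A further *C1qc* probe, designed on another transcript, stayed near background on all 8 arrays and was not tested.

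*Mrc1* (CD206), *Cd163* and *Folr2* encode endocytic receptors: a mannose-binding lectin, the receptor of hemoglobin bound to haptoglobin, and a folate receptor. *Mrc1* read 8.51, 8.12, 8.89 and 8.76 in Co mice and 8.74, 9.21, 7.96 and 9.07 in Pg mice. Pg mice 2 and 4 lay above all Co mice and Pg mouse 3 lay below them all. The difference was 0.17 ± 0.29 on the log2 scale (SE, limma q = 0.754), a fold of 1.13 with an interval from 0.709 to 1.79.

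*Cd163* departed from this order in that Pg mouse 2 was not the highest. It read 9.15, 8.75, 9.43 and 9.38 in Co and 9.11, 9.25, 8.50 and 9.32 in Pg mice, so that Co mouse 3 was the highest of the 8 and Pg mouse 3 the lowest. Its log2 difference was -0.13 ± 0.22 (SE, limma q = 0.747), and its fold of 0.911 had an interval from 0.643 to 1.29. A weaker *Cd163* probe was above background on 2 Co arrays and 1 Pg array and was not tested. *Folr2* read 7.92, 7.55, 8.48 and 8.41 in Co mice and 8.14, 8.57, 7.23 and 8.20 in Pg mice. Again the Pg range enclosed the Co range, and the log2 difference of -0.06 ± 0.32 (SE, limma q = 0.931) had the highest q of the 14 probes.

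*Lyz2* and *Mpeg1* encode lysozyme M, which cuts bacterial cell walls, and perforin-2, which forms pores in engulfed bacteria. The brighter *Lyz2* probe gave 12.91, 12.15, 13.04 and 13.15 in Co mice and 12.98, 14.22, 12.32 and 14.14 in Pg mice. Pg mice 2 and 4 stood above every Co mouse, whereas Pg mice 1 and 3 lay within the Co range. The fitted difference was 0.60 ± 0.45 on the log2 scale (SE, limma q = 0.464), a fold of 1.52 with an interval from 0.737 to 3.14. The weaker *Lyz2* probe read 7.72, 6.80, 7.75 and 7.76 in Co and 7.38, 8.69, 6.35 and 8.36 in Pg mice, with a difference of 0.19 ± 0.51 (SE, limma q = 0.853). Both probes ordered the Pg mice alike, with an r of 0.99 between their deviations from the group means.

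*Mpeg1* showed the widest spread among the members. It read 7.61, 7.07, 8.09 and 7.80 in Co mice and 7.79, 9.55, 6.85 and 9.39 in Pg mice. Signals of the Pg mice spanned 6.50-fold, against 2.03-fold for the Co mice. The difference of 0.75 ± 0.60 (SE, limma q = 0.496) was the largest fitted for a member, a fold of 1.68 with an interval from 0.642 to 4.40. The other *Mpeg1* probe stayed near background on all 8 arrays.

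*Cd68* encodes a glycoprotein of the lysosome and endosome membrane. Its brightest probe gave 9.38, 9.996, 10.04 and 9.62 in Co and 10.25, 10.49, 9.37 and 10.35 in Pg mice, so that 3 Pg mice lay above all Co mice and Pg mouse 3 below them all. The log2 difference was 0.36 ± 0.26 (SE, limma q = 0.461), a fold of 1.28 with an interval from 0.837 to 1.96. A further probe followed it closely (r = 0.98) with a difference of 0.25 ± 0.30 (SE, limma q = 0.647). The dimmest *Cd68* probe, above background on 4 Co and 2 Pg arrays, was led by Pg mouse 4 at 6.67 where the other 7 mice lay between 4.44 and 5.09.

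*Csf1r* was the member whose probes disagreed. The brighter probe read 10.83, 10.58, 11.20 and 11.25 in Co mice and 11.33, 11.88, 10.47 and 11.60 in Pg mice, with 3 Pg mice above all Co mice and Pg mouse 3 below them. Its difference was 0.36 ± 0.30 on the log2 scale (SE, limma q = 0.521), a fold of 1.28 with an interval from 0.787 to 2.09. The weaker probe, upstream of it on the plus strand, read 7.85, 7.85, 7.81 and 7.96 in Co and 7.72, 7.75, 7.73 and 7.69 in Pg mice. There every Pg mouse lay below every Co mouse, by a log2 difference of -0.15 ± 0.05 (SE, limma q = 0.163). This probe was the 1 of 14 whose groups did not overlap, against 15.8% of all probes tested. With the authors' own log2 values its difference was 0.080 in place of -0.15. The deviations of the *Csf1r* probes had an r of 0.16, so the weaker probe did not share the swings between mice that the brighter one showed.

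**Figure D1:**
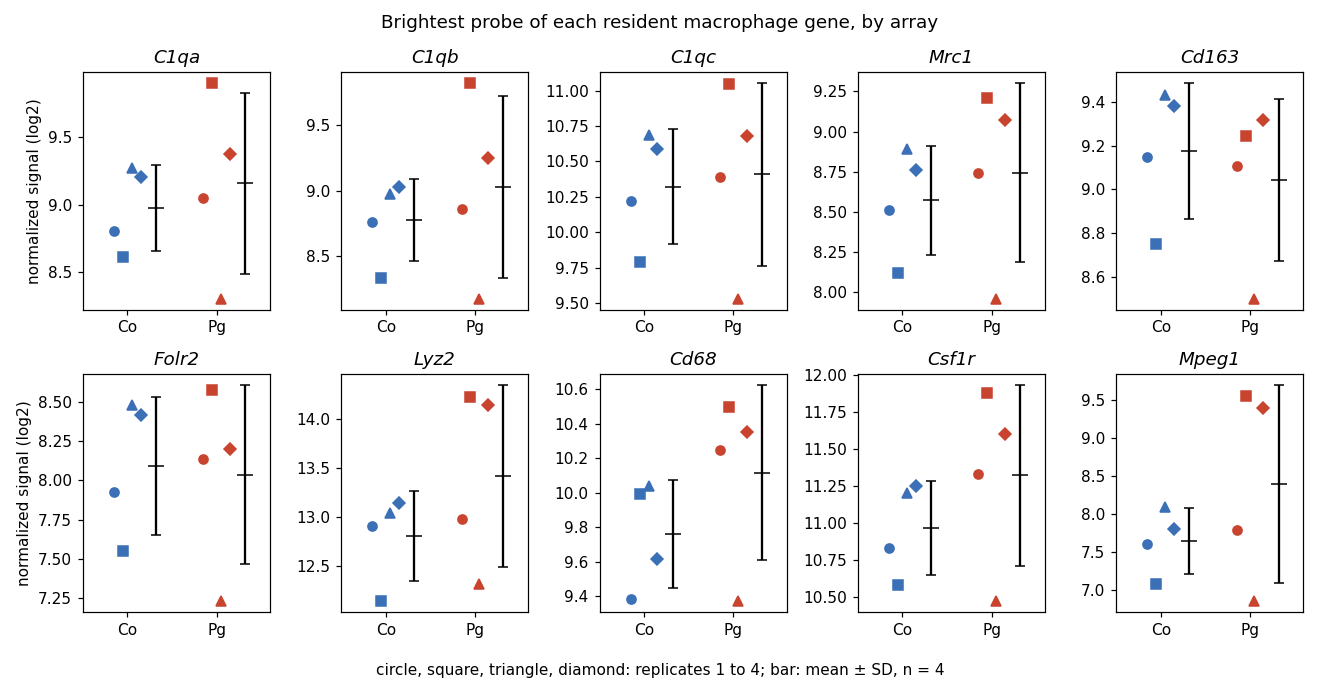
Log2 normalized signal (vertical axis) of the brightest probe of each of the 10 genes in the Co mice (blue) and Pg mice (red), with 1 point per array, the symbol giving the replicate number and the black bar the mean ± SD (n = 4). In 9 of the 10 panels Pg mouse 3 (triangle) is the lowest point of the 8 and in 9 of 10 Pg mouse 2 (square) is the highest.

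The 95% intervals show what 4 mice per group could resolve. Only for the weaker *Csf1r* probe (0.828 to 0.985) did the whole interval lie within a 1.5-fold change in either direction. For the other 13 probes a 1.5-fold change in at least 1 direction remained inside the interval, so that a missing call does not show equal levels.

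**Figure D2:**
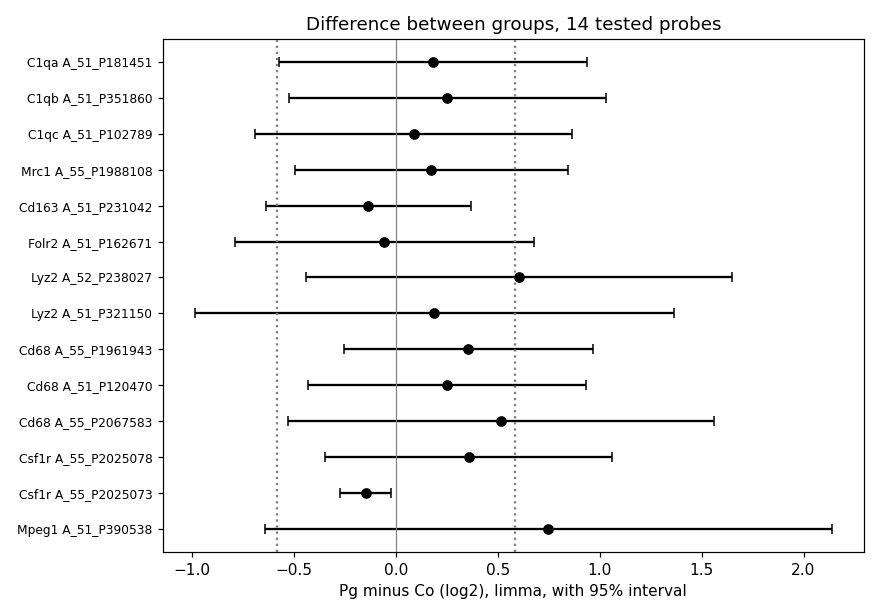
Fitted log2 difference, Pg minus Co, of the 14 tested probes (points) with its 95% interval from limma (bars, 4 arrays per group). Dotted lines mark a 1.5-fold change either way, and 13 of the 14 intervals cross 0.

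The spread between mice was wider in the Pg group for nearly all members. For 13 of the 14 probes the SD was larger in Pg than in Co mice, where this held for 53.8% of all probes tested, and the median ratio of Pg to Co SD was 1.98, against 1.07 over all probes. Pg mouse 3 had the lowest of the 8 values for 12 of the 14 probes (11.8% of all probes), and Pg mouse 2 the highest for 11 of 14 (12.2% of all probes). In the Co group, mouse 2 was the lowest Co mouse for the brightest probe of 9 of the 10 genes. The counts over genes are not independent of each other, because the members varied together between arrays. No test of a difference in spread was run.

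The mean profile was taken over the brightest probe of each gene, after subtracting the gene's mean. It was -0.23, -0.54, 0.17 and 0.08 in Co mice 1 to 4 and 0.03, 0.76, -0.77 and 0.50 in Pg mice 1 to 4, on the log2 scale. Co mouse 2 and Pg mouse 3 were low, Pg mice 2 and 4 were high, and Pg mouse 1 was close to the middle. The profile thus spanned 0.72 among Co mice and 1.52 among Pg mice. Its group means were -0.13 ± 0.32 (SD, n = 4) and 0.13 ± 0.67 (SD, n = 4), a gap smaller than either SD.

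**Figure D3:**
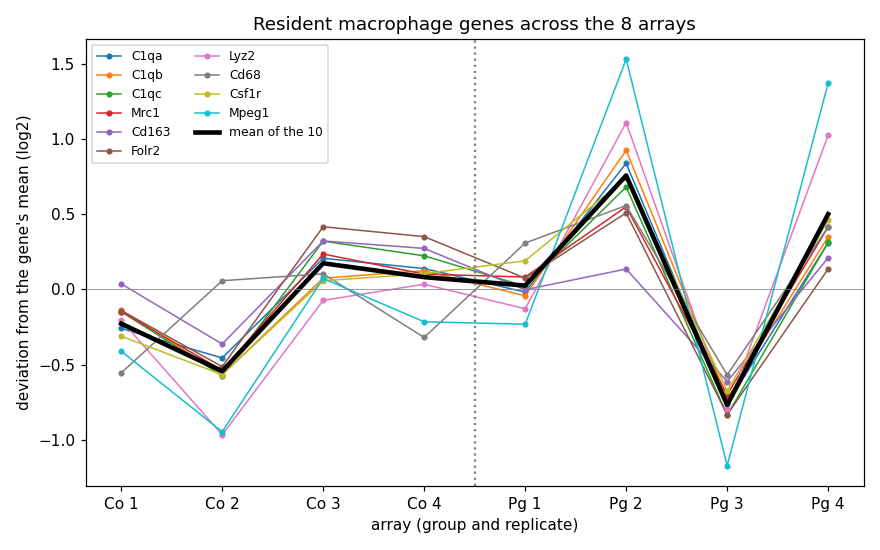
Deviation of the log2 signal from each gene's mean over the 8 arrays (vertical axis), by array (horizontal axis, Co left and Pg right of the dotted line), for the brightest probe of the 10 genes (thin lines) and their mean (thick line). Lines only join the points of a gene, since replicates have no order, and the mean runs from -0.77 in Pg mouse 3 to 0.76 in Pg mouse 2.

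The genes varied together within groups. Over the 8 deviations from the group means, Pearson's r had a median of 0.94 over the 45 pairs of genes, from 0.58 to 0.99. An r above 0.8 was found for 36 of the 45 pairs, against 1.94% of the pairs among all 22454 genes tested. All points share a slide and the quantile normalization, and r over 8 arrays is a description without a test. Within the 4 Co mice the median r was 0.96 and 36 pairs exceeded 0.8, and within the 4 Pg mice the median was 0.96 and all 45 did.

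The C1q genes were among the closest, with an r of 0.99 for *C1qa* with *C1qb*, 0.98 for *C1qa* with *C1qc* and 0.97 for *C1qb* with *C1qc*. Genes on other chromosomes came as close: *C1qc* had an r of 0.99 with *Mrc1*, *Folr2* and *Csf1r*. *Lyz2* and *Mpeg1*, the antibacterial pair, had an r of 0.98. *Cd68* followed the rest least, with r between 0.58 and 0.74. All 9 pairs at or under 0.8 involved *Cd68*. Among Co mice it ran apart from the others, since Co mouse 2, the lowest Co mouse of the other 9 genes, had a high *Cd68* signal. The lowest r within the Co group was -0.41.

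**Figure D4:**
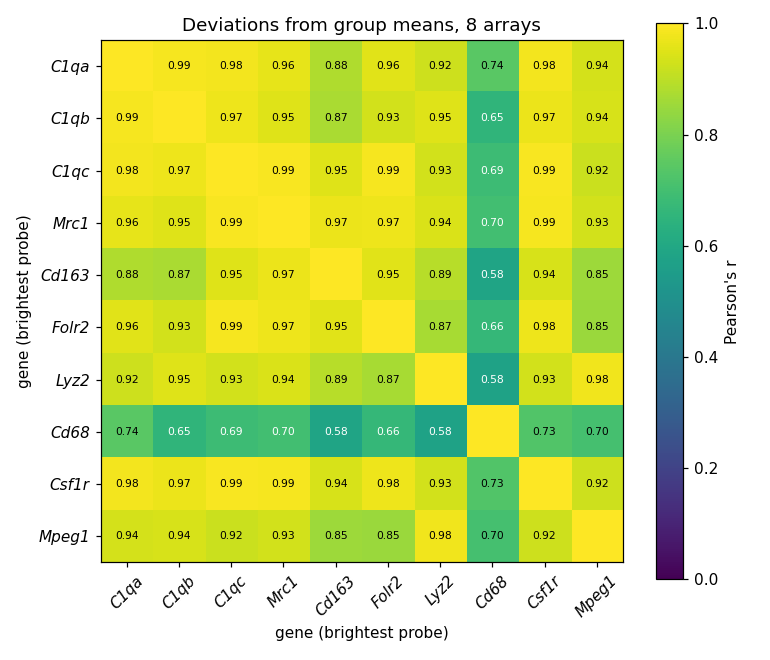
Pearson's r (color and number) between the brightest probes of each pair of the 10 genes, over deviations of the 8 arrays from their group means. All pairs without *Cd68* lie at 0.85 or higher, and those of *Cd68* lie between 0.58 and 0.74.

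Ratios of members within an array set aside the swings that they share. The log2 ratio of *Folr2* to *Csf1r* (brighter probe) was -2.91, -3.03, -2.72 and -2.83 in Co mice and -3.19, -3.31, -3.24 and -3.40 in Pg mice. Every Pg mouse lay below every Co mouse, with means of -2.87 ± 0.13 and -3.29 ± 0.09 (SD, n = 4 each). For *Cd163* to *Csf1r* the ratios were -1.68, -1.83, -1.77 and -1.86 in Co and -2.22, -2.64, -1.97 and -2.28 in Pg mice, again without overlap. In all, 8 of the 45 ratios did not overlap between groups (17.8% of the pairs), where 12.2% of the ratios between all genes tested did not. That share is near the background and is no result about these genes as a set. The count was 3 when the median signal was used without background subtraction. With the authors' values, in which the brighter *Csf1r* probe had no match, it was 2 of the 36 ratios left. Among the 8 ratios, *Csf1r* took part in 4, being the relatively higher gene in Pg mice each time, and *Cd163* took part in 4, being the relatively lower gene each time. A ratio shows unequal change and not which gene moved, and the comparison was added after the values had been seen.

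Genes outside the list with the most similar pattern were ranked by Pearson's r with the mean profile over the 8 arrays. The closest 5 were *Pamr1*, *Emilin2* and *Lcp1* (r = 0.99 each), then *Pilrb1* and *Gm14548* (r = 0.98 each). *Lcp1* encodes an actin-bundling protein of white blood cells, *Emilin2* a glycoprotein of the extracellular matrix and *Pilrb1* a paired immunoglobulin-like receptor. *Lcp1* read 7.15, 6.97, 7.84 and 7.89 in Co mice and 7.81, 8.57, 6.66 and 8.33 in Pg mice, the order seen for the members. In the test between groups its log2 difference was 0.38 ± 0.43 (SE, limma q = 0.634), and the q of the other 4 lay between 0.547 and 0.708. An r above 0.9 with the profile was reached by 237 of the 22454 genes, or 1.06%, members included.

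Other macrophage genes were taken from lists of markers, with the brightest tested probe for each gene. Of 12 core macrophage genes 11 were tested, 9 were higher in Pg mice in the fit and 2 lower, with a median log2 difference of 0.47, and 0 passed the test. Without Pg mouse 2 the median was 0.25, and without Pg mouse 3 it was 0.72. The highest were *Cd14*, a co-receptor of bacterial lipopolysaccharide (0.99, limma q = 0.512), and *Ctss*, a lysosomal protease (0.62, limma q = 0.433). The lowest were *Itgam*, the CD11b integrin (-0.05), and *Mertk*, a receptor for dying cells (-0.26, limma q = 0.199). *Cd14* was carried by Pg mouse 4, at 11.28 where the other 7 mice lay between 7.10 and 8.07.

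The same list was compared with the members' mean profile, by r over deviations from the group means. An r above 0.8 was found for 6 of the 11 genes, against 4.07% of 22453 genes. They were *Fcer1g*, *Ctss* and *Tyrobp* (r = 0.99 each), *Adgre1*, a surface antigen of mouse macrophages, and *Laptm5* (0.97 each), and *Aif1* (0.93). These genes were named for their r after the values were seen. *Itgam* (-0.11), *Mertk* (-0.04) and *Ptprc*, the CD45 antigen of all white blood cells (-0.54), did not follow the profile.

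Of 16 genes of resident and alternatively activated macrophages 13 were tested. In Pg mice 10 were higher and 3 lower in the fit, the median log2 difference was 0.18, and 0 passed the test. That median was 0.02 without Pg mouse 4 and 0.40 without Pg mouse 3. *Ms4a7* (0.76, limma q = 0.358) and *Clec10a*, a galactose-binding lectin (0.67, limma q = 0.348), were highest. *Lyve1*, a hyaluronan receptor (-0.29, limma q = 0.409), and *Siglec1*, a sialic acid receptor (-0.33, limma q = 0.783), were lowest. An r above 0.8 with the profile was found for 8 of the 13: *Stab1* and *F13a1* (0.97 each), *Cbr2* and *Ms4a7* (0.96 each), *Fcna* (0.94), *Clec10a* and *Pf4* (0.92 each) and *Retnla* (0.91). *Lyve1* followed less (0.56). *Timd4*, a receptor of self-renewing macrophages in several tissues, was not above background on any array.

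Among 12 genes of monocytes and inflammatory macrophages, 11 were tested. The fit put 8 of them higher and 3 lower in Pg mice, the median was 0.13, and 0 passed the test. That median was -0.04 without Pg mouse 4 and 0.29 without Pg mouse 3. *Ccr2*, the chemokine receptor of recruited monocytes, had a log2 difference of 0.85 (limma q = 0.472) and *Plac8* of 0.80 (limma q = 0.364). *Fpr2* (-0.24) and *Marco* (-0.27) were lowest. *Ccr2* followed the profile with an r of 0.94, *Itgax* (CD11c) with 0.82 and *Cd86* with 0.80, whereas *Tnf* (0.31), *Ccl2* (0.22) and *Nos2* (-0.03) did not.

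The growth factors and transcription factors of macrophages were mixed. Of 11 genes 9 were tested, and 5 were higher and 4 lower in Pg mice (median 0.01, or -0.07 without Pg mouse 4 and 0.21 without Pg mouse 3). *Id3*, a regulator of resident macrophages in liver, had a log2 difference of 0.33 (limma q = 0.0924), under the fold limit. Its r with the profile was 0.10. *Csf2ra* (0.45) and *Irf8* (0.41) were highest and followed the profile, with r of 0.95 and 0.91. *Csf1*, the ligand of CSF1R, had an r of 0.82, while *Il34*, the other ligand, had one of -0.46. *Maf* had the difference -0.17 (limma q = 0.634). For *Spi1*, which encodes PU.1, no array gave a signal well above background.

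The classical complement partners of C1q were all tested, and all 6 had a fitted difference above 0 (median 0.19, or 0.14 without Co mouse 1 and 0.32 without Pg mouse 3), with 0 past the test. *C3*, the central complement component (0.64, limma q = 0.307), and *C4b* (0.61, limma q = 0.346) were highest, and *C1s1* (0.08) and *C1ra* (0.01), the proteases that bind C1q, were lowest. It was *Serping1*, the inhibitor of these proteases (r = 0.95), *C1s1* (0.90) and *C1ra* (0.88) that followed the macrophage profile. *C3* (0.41), *C4b* (0.11) and *C2* (-0.04) did not. Pg mouse 1 had the highest *C3* signal, 13.07 against 11.26 to 12.05 in the other Pg mice, and it was near the middle for the macrophage genes.

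General lysosome genes showed little of the members' pattern. Of 10 genes 9 were tested, 4 higher and 5 lower, with differences from -0.04 for *Lamp2* and -0.02 for *Npc2* to 0.07 for *Lipa* and 0.13 for *Ctsd*. Their median r with the profile was 0.19. *Msr1*, a scavenger receptor, exceeded background on none of the arrays. Among 6 genes of heme and iron handling 5 were tested, 3 higher (*Hp* at 0.58 and *Slc11a1* at 0.16 led) and 2 lower (*Blvrb* at -0.01 and *Slc40a1* at -0.27). *Hp* was carried by Pg mouse 1, at 14.49 where the other 7 mice lay between 10.76 and 12.63. *Slc11a1*, an iron transporter of phagosomes, followed the profile (r = 0.96), and *Hp*, the haptoglobin whose complex with hemoglobin CD163 binds, did not (-0.36). *Slc40a1*, the iron exporter, had an r of -0.50.

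**Figure D5:**
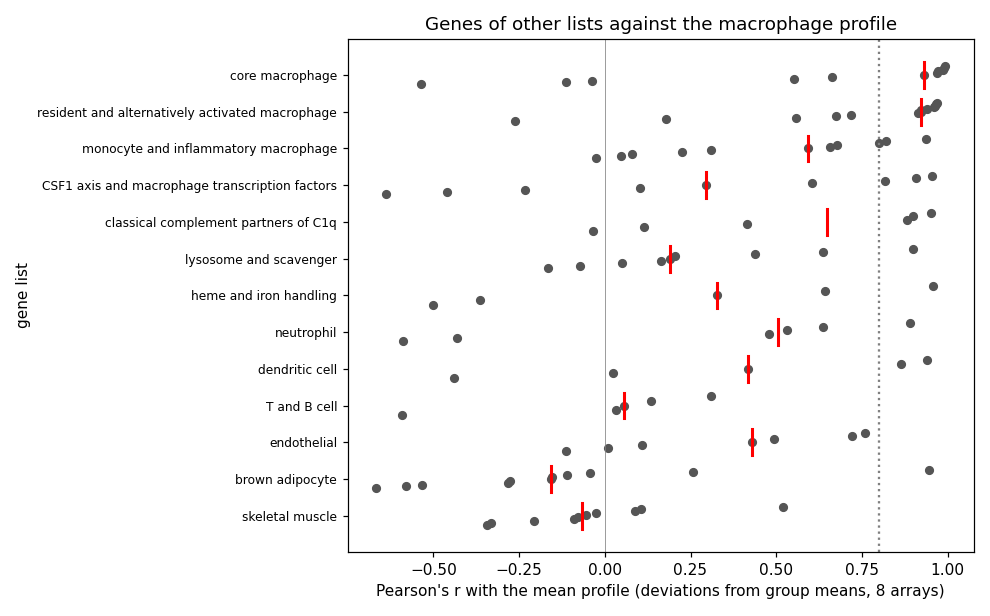
Pearson's r (horizontal axis) of each tested gene with the mean profile of the 10 resident macrophage genes, over deviations of the 8 arrays from their group means, by gene list (rows); red bars are list medians and the dotted line marks 0.8. The medians of the core macrophage list (0.93) and of the resident list (0.92) lie highest, and those of the brown adipocyte (-0.16) and skeletal muscle (-0.07) lists lie below 0.

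Markers of the other cells that the tissue could hold were set beside these results. Of 10 neutrophil genes 6 were tested, all with a difference above 0 and 0 past the test. *S100a8* read 4.56, 5.20, 5.33 and 5.09 in Co mice and 8.59, 8.32, 5.18 and 6.76 in Pg mice (log2 difference 2.16, limma q = 0.132), and *S100a9* had a difference of 2.04 (limma q = 0.195). *Ly6g* (0.09) and *Camp* (0.01) were lowest. Pg mouse 3 had the lowest *S100a8* signal of the Pg mice, while Pg mouse 1 had the highest and was near the middle for the macrophage genes. The list's median r with the members' profile was 0.50. It exceeded 0.8 for 1 gene, *Mmp8* (0.89), whose probe was above background on 4 Co arrays and 1 Pg array. *S100a8* had an r of 0.63, whereas *Camp* (-0.43) and *Csf3r* (-0.59) lay below 0. *Ltf* and *Ngp*, granule genes of neutrophils, were not well above background on any array. Over the list, 5 of 10 genes were above background on all 8 arrays, and the summed signal lay between 40156 and 50243 in Co and between 47613 and 55113 in Pg mice. That sum is led by the *Csf3r* probe, which read 15.26 to 15.73 on the log2 scale, and says little about the other genes. The part of neutrophils in the members' values was not tested.

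The adipocyte and muscle lists had a median r below 0 with the members' profile. Summed over its genes, the brown adipocyte signal lay between 590343 and 636817 in Co and between 624211 and 675320 in Pg mice, and the muscle signal between 2503199 and 2690278 in Co and between 2465582 and 2635864 in Pg mice. For the members that sum lay between 9712 and 16602 in Co and between 9404 and 30606 in Pg mice. These sums are led by each list's brightest probes, and an even sum does not show even levels of the other genes. In the muscle list *Myh4* ran from 11.38 in Pg mouse 1 to 17.07 in Pg mouse 2 on the log2 scale. *Actn3* ran from 10.49 to 14.01 in the same mice. Whether muscle content differed between mice was not tested. Among brown adipocyte genes *Dio2*, the enzyme that activates thyroid hormone, was the 1 that followed the profile (r = 0.94), with a log2 difference of 0.59 (limma q = 0.129). Of 7 endothelial genes none had an r above 0.8, and *Kdr*, the VEGF receptor of endothelium, had a difference of 0.57 (limma q = 0.0573), just under the fold limit. For 5 dendritic cell genes tested the r exceeded 0.8 in 2, *Flt3* (0.94) and *Cd209a* (0.86), and for 5 T and B cell genes in 0. In the other lists the highest and lowest differences were those of *Cd209a* (0.86) and *Zbtb46* (0.14) against *Flt3* (-0.01) and *Ccr7* (-0.53) for dendritic cells, and of *Ms4a1* (0.17) and *Cd3e* (0.08) against *Cd3d* (-0.14) for T and B cells. For endothelium they were those of *Kdr* and *Cldn5* (0.41) against *Tie1* (-0.14) and *Pecam1* (-0.20), and for brown adipocytes of *Dio2* and *Plin1* (0.35) against *Cpt1b* (-0.11) and *Ppargc1a* (-0.36). For muscle they were those of *Myh2* (0.06) and *Tnnt3* (0.0082) against *Actn3* (-0.27) and *Myh4* (-0.77). No gene of these lists was differentially expressed.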

How the data were processed

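Per the labels, RNA of 4 Co and 4 Pg mice was hybridized to Agilent one-color arrays. The authors deposited Feature Extraction 11.0.1.1 output with Cy3 intensity, background-subtracted and detrended, without normalization between arrays. They also deposited quantile-normalized log2 values, used here as an alternative, beside their own fold changes and p-values, which were not used. Population outlier spots, 90 to 150 on an array, were removed, and no member spot was among them. Processed intensities were averaged per probe, quantile-normalized, raised to at least 1 and log2-transformed with R 4.3.3. Probes well above background on at least 4 arrays (33819 of 56605) entered limma 3.58.1 (lmFit, eBayes), with Benjamini-Hochberg adjustment. The fit was tested on simulated data. For gene lists the brightest probe stood for a gene. Accessions matched the mouse reference for 32994 probes, and array names were kept otherwise.

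The members and lists were chosen with earlier results of these data known. Named genes are all members with every probe, the 2 highest and 2 lowest tested genes of each list (some are not reported here), and the 5 genes most like the members. Genes named for their r or as markers were chosen after their values were seen. Precision is limited by the number of arrays. Alternatives were scaling to the 75th percentile, no normalization, normexp with an offset of 50, the median signal, other filters, the authors' log2 values, a trend in eBayes, the replicate number as a block and each array left out.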

Additional observations from a re-analysis of the deposited data

Results flagged for a closer look

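In groups of 4 mice, a value was singled out when its gap to the nearest of the other 3 took up most of the group's range (Dixon's test at its 95% critical value). Chance gives this in about 1 of 20 groups, and it was met by 12 of 140 groups tested and by 1 of the 28 groups of member probes. The marker genes tested were those with the highest and lowest differences of each list, not whole lists. The rate of 1 in 20 need not hold for genes picked in this way. That member was the weaker *Lyz2* probe in Co mouse 2, at 6.80 on the log2 scale where the other Co mice lay between 7.72 and 7.76.

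The other 11 were genes of the marker lists. Low values were *Ppargc1a* in Co mouse 4 (11.76, others 12.65 to 12.68), *C1ra* in Pg mouse 3 (9.37, others 10.11 to 10.14) and *Cd209a* in Pg mouse 3 (3.53, others 6.21 to 6.49). *Lipa* was low in Pg mouse 1 (8.32, others 8.69 to 8.71) and *Camp* in Co mouse 3 (6.68, others 6.87 to 6.89). High values were *Ccr7* in Pg mouse 4 (5.87, others 5.13 to 5.23), *Fpr2* in Pg mouse 1 (7.80, others 7.18 to 7.24) and *S100a9* in Co mouse 3 (7.27, others 6.51 to 6.60). Among muscle genes, *Myh2* was low in Co mouse 4 (18.31, others 18.53 to 18.57), *Tnnt3* in Co mouse 1 (18.81, others 18.84) and *Actn3* in Co mouse 3 (11.78, others 13.43 to 13.65). The *Tnnt3* value is only a swap of ranks at the top of the quantile-normalized scale. *Tnni2* mirrored it, at 18.84 in Co mouse 1 and 18.81 on the other arrays. Both low values of Pg mouse 3 fell on the array where the members' signal was lowest.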

How the results depend on the processing

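Under all alternatives run, 0 member probes were differentially expressed and 0 had a q under 0.1. The count of probes with a difference above 0 (11 of 14) ran from 7 without Pg replicate 2 to 13 without Pg replicate 3, and the median log2 difference (0.22) from 0.003 to 0.54 between the same settings. It was 0.08 without Co replicate 2, 0.09 without Pg replicate 4, and 0.35 without both Pg replicate 2 and Pg replicate 3. Under all the remaining settings it lay between 0.17 and 0.30. With no normalization 12 of the 14 probes and 56.0% of all probes were above 0, against 42.3% after quantile normalization.

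Gene pairs with an r above 0.8 (36 of 45) ran from 30 without Pg replicate 3 to 44 without Co replicate 2, and numbered 30 without Pg replicates 2 and 3. With the authors' values, in which the brighter *Csf1r* probe had no match, they numbered 29 of the 36 pairs left. Ratios that did not overlap (8) fell to 3 with the median signal and to 2 of 36 with the authors' values, which lack 4 of the 8 through that *Csf1r* probe. They numbered 14 without Pg replicates 2 and 3 and ran from 8 to 14 with single arrays left out (13 without Co replicate 1, 14 without Co replicate 2 or Pg replicate 1). Apart from the missing probe, the cause was not tested.

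Directions turned for *Folr2* (0.014 with no normalization and 0.077 without Pg replicates 2 and 3), the weaker *Csf1r* probe (0.080 with the authors' values) and *Cd163* (0.037 without Pg replicates 2 and 3). With single arrays left out, differences that crossed 0 ran from -0.12 to 0.38 for *C1qc*, -0.064 to 0.47 for *C1qa*, -0.014 to 0.54 for *C1qb*, -0.14 to 0.64 for the weaker *Lyz2* probe, -0.24 to 0.21 for *Folr2* and -0.28 to 0.047 for *Cd163*. Pg replicates 2 and 3 set most of these ends.

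Replicate numbers share only a slide column. Same-numbered deviations correlated at -0.07 to 0.18, so the numbers did not pair the mice. With the replicate number as a block 0 member probes were called, the median stayed at 0.22 and 0 of all probes were called, against 546 without the block. Over all probes the count of calls was 283 with scaling to the 75th percentile, 27 with no normalization, 94 with normexp, 108 with the median signal, 318 to 372 with other filters, 106 with the authors' values, and 3 to 697 with single arrays left out.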
